A study of Mus musculus with 8 samples.

Results

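The caveolins, the cavins and 3 proteins of the caveolar neck were followed in primary mouse cardiac fibroblasts with and without transforming growth factor β1 (TGF-β1). The 9 genes were taken by name from the deposited gene count table, out of 56748 genes in all: Cav1, Cav2 and Cav3, Cavin1, Cavin2 and Cavin3, and Ehd2, Pacsin2 and Pacsin3. Each name matched 1 row, and all 9 passed the filter on low counts that left 13960 genes to test. The cells came from hearts of 1-day-old wild-type C57BL/6J mice and were kept in serum-containing medium after a brief plating that discarded non-adherent cells. A set of 4 libraries came from cultures with no treatment and 4 from cultures given 10 ng/mL TGF-β1 for 48 h. Replicates are described as coming from separate litters, and no vehicle is named for the untreated cultures. The treatment protocol also names the MRE11 inhibitor Mirin, with which no library here is labelled. The comparison asks how TGF-β1, used to set up a culture model of fibrosis, changes the transcripts of these cells.

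Caveolae are small flask-shaped pits of the plasma membrane, rich in cholesterol and common in fibroblasts, endothelium, adipocytes and muscle. Caveolins insert into the inner leaflet as hairpins and form the scaffold, cavins assemble on it as a peripheral coat, the ATPase EHD2 holds the neck at the surface, and the pacsins bend the membrane through their F-BAR domains. Caveolae flatten when membrane tension rises and so act as a reserve of membrane, and caveolin-1 is known to bind the type I TGF-β receptor and to take part in its internalisation.

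Of the 9 genes, 6 fell and none rose (edgeR quasi-likelihood test, adjusted p under 0.05). Over all genes tested 36.0% were called, 17.6% as higher and 18.5% as lower. Scaling by totals alone, without TMM factors, turned the split over the whole table from 2451 higher and 2579 lower into 1301 and 3673. It also moved the median log2 fold change of all genes tested from 0.01 to −0.07. The 9 genes again gave 6 falls and no rise, but a downward shift favours falls, so this is not an independent check. With TMM factors the median log2 fold change of the 9 was −0.24 and that of all genes tested was 0.01. The genes that fell were the 3 caveolins, Cavin1, Cavin2 and Pacsin2. Cavin3, Ehd2 and Pacsin3 were not called. In 5 genes, Cav1, Cav2, Cavin1, Cavin2 and Pacsin2, every treated library lay below every untreated one. Over all genes tested, the groups did not overlap in 33.9%, and in 17.4% they did not overlap with the treated group lower.

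**Figure D1:**
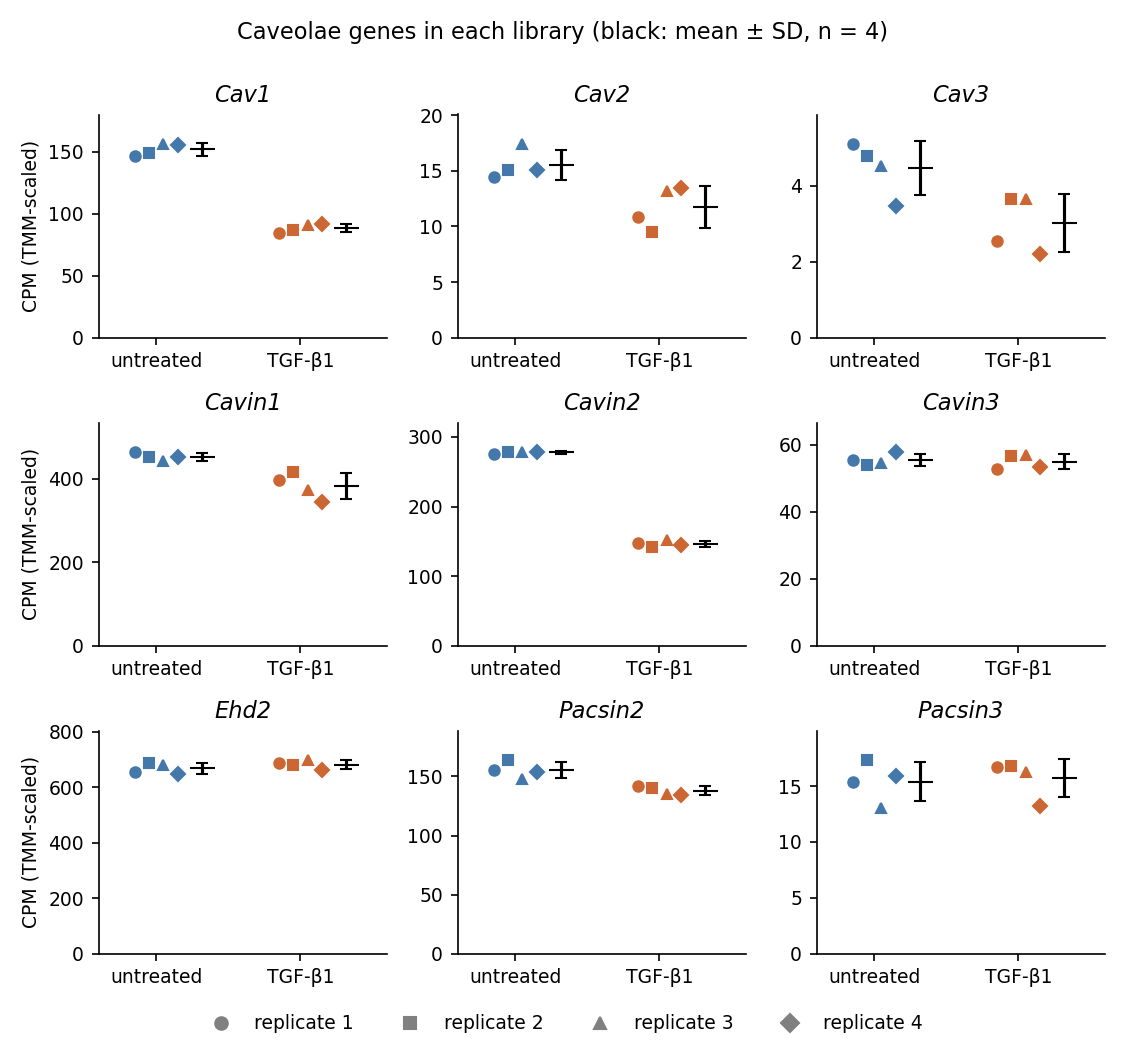
CPM scaled with TMM factors (vertical axes, each from 0) of the 9 genes in each of 4 untreated and 4 TGF-β1 libraries, one marker shape per replicate number, with mean ± SD in black. The groups are separate for Cav1, Cav2, Cavin1, Cavin2 and Pacsin2 and overlap for Cav3, Cavin3, Ehd2 and Pacsin3.

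The libraries held 14340740 to 17176898 counts. Untreated replicate 1 stood apart in ribosomal RNA, which took 0.0322% of its counts, where the remaining untreated libraries had 2.05% to 2.40% and the TGF-β1 libraries 1.05% to 2.47%. Without it, Cav1, Cav2, Cavin1, Cavin2 and Pacsin2 changed by −0.80, −0.43, −0.23, −0.93 and −0.18 on the log2 scale and were still called, and Cav3 was not (−0.50, edgeR adjusted p = 0.0815). The treated libraries were higher in Acta2, Ccn2 and Ltbp2, standard TGF-β responses, by 0.70, 1.00 and 2.19 (log2). These genes were named with earlier results of these data known, and Ltbp2 had the smallest edgeR p of all genes tested. Their rise is therefore not an independent check of the treatment. The fibroblast markers of the labelled cell type were present, with Col1a1 at a mean of 8838 CPM and Vim at 3753 CPM over all libraries. Of the 8 markers in that list, only Col1a1 rose (0.62, log2) and Vim was not called. The other 6 fell, and the median of the list was −0.54. Adipocyte markers summed to 0.954 to 2.22 CPM, with Adipoq, Cfd and Cidec at 0 in every library. In bulk RNA, fewer cells of a type and less RNA per cell cannot be told apart.

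Cav1 encodes caveolin-1, the structural caveolin of non-muscle cells (ENSMUSG00000007655, GRCm39 chromosome 6, 17306334 to 17341451, plus strand). Its CPM in untreated replicates 1 to 4 was 147, 149, 157 and 155. In TGF-β1 replicates 1 to 4 it was 84.1, 87.2, 91.1 and 91.5. The treated values thus formed a narrow band well under the untreated ones. Group means were 152 ± 4.96 and 88.5 ± 3.50 CPM (SD, n = 4 and 4). On the log2 scale the difference was −0.78 ± 0.04 (SE; adjusted p = 1.36e-12, edgeR), or 1.72-fold lower. By p-value it stood at rank 168 of the genes tested.

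Cav2 encodes caveolin-2, which forms oligomers with caveolin-1 and needs it to leave the Golgi (ENSMUSG00000000058, chromosome 6, 17281184 to 17289114, plus strand). Untreated replicates 1 to 4 gave 14.4, 15.1, 17.5 and 15.1 CPM. TGF-β1 replicates 1 to 4 gave 10.9, 9.47, 13.2 and 13.4 CPM. The nearest pair across groups, treated replicate 4 and untreated replicate 1, lay close together, at 13.4 and 14.4 CPM, without overlap. The log2 difference was −0.40 ± 0.11 (SE; adjusted p = 0.00659, edgeR).

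Cav3 encodes the caveolin of striated muscle (ENSMUSG00000062694, chromosome 6, 112436466 to 112449833, plus strand). It was the least counted member, with 58 to 77 reads in untreated and 36 to 53 in treated libraries. Untreated replicates 1 to 4 gave 5.11, 4.78, 4.52 and 3.46 CPM, and TGF-β1 replicates 1 to 4 gave 2.54, 3.66, 3.66 and 2.21 CPM. The groups overlapped, since untreated replicate 4 was lower than treated replicates 2 and 3. The log2 difference was −0.57 ± 0.20 (SE; adjusted p = 0.0288, edgeR). The call was lost without untreated replicate 1, 2 or 3 or treated replicate 1 or 4 (edgeR adjusted p = 0.0815, 0.0705, 0.055, 0.0797 and 0.106), and with DESeq2 (adjusted p = 0.0582). Cardiomyocyte markers fell in the same libraries, in 11 of 12 cases with a median of −0.81, and their summed level was 740 to 813 CPM in untreated and 385 to 465 CPM in treated libraries. Tnnt2, cardiac troponin T, was the most abundant of them (518 ± 22.9 to 298 ± 29.2 CPM, SD, n = 4 and 4). Whether the lower Cav3 is linked to these markers was not tested. Cavin4, the muscle-restricted cavin, had a mean of 0.755 CPM in untreated and 0.697 CPM in treated libraries and was not called (−0.09 ± 0.38, edgeR adjusted p = 0.884).

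Cav2 and Cav1 lie head to tail on chromosome 6, 17219 bases apart, and both fell. The nearest tested coding genes on either side moved in different directions. Tes, which encodes the LIM protein testin and lies 175356 bases before Cav2, rose by 0.57 ± 0.10 (log2, SE, edgeR adjusted p = 5.83e-05). Met, the receptor of hepatocyte growth factor, 122347 bases beyond Cav1, fell by 1.22 ± 0.10 (edgeR adjusted p = 2.8e-09). The 250 bases before the most upstream RefSeq start site of each of these 2 genes are shown because they share a locus and a direction. They are from the RefSeq table on build GRCm38.p6, Cav1 at chr6:17306085-17306334 and Cav2 at chr6:17280935-17281184, both on the plus strand and written 5′ to 3′. Capitals mark matches, on either strand, to a TATA box (TATAAA), a GC box (GGGCGG) or a SMAD box (CAGAC).
Cav1: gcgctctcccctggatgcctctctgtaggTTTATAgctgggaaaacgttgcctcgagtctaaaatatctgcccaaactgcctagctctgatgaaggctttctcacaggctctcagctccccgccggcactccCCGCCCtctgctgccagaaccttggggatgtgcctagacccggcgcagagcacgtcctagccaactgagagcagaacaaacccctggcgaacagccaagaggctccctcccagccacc
Cav2: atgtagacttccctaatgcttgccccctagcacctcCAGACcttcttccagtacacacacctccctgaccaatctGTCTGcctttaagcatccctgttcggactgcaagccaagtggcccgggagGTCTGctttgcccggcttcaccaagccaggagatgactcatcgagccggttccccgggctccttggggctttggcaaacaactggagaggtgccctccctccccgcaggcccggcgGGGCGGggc
Both matches in the Cav1 window, 1 GC box and 1 TATA box that begins 221 bases before the start, were on the opposite strand, and it held no CAGAC. The table has 2 windows for Cav1, and the one not shown, whose start site lies 1305 bases downstream, held 2 matches to CAGAC and none to the other motifs. The Cav2 window held 3 matches to CAGAC and 1 GC box. Of 32851 promoter windows of this length in the table, 42.2% held CAGAC, 32.7% GGGCGG and 12.4% TATAAA, so these are common short motifs, and a match is a description of the letters only. None of the 3 windows of Cav1 and Cav2 held a CArG box, the serum response factor motif found in 1.47% of windows, or the TEAD motif CATTCC, found in 12.6%.

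Cavin1 encodes the cavin that is required for caveolae in all tissues (ENSMUSG00000004044, chromosome 11, 100847559 to 100861713, minus strand). Untreated replicates 1 to 4 gave 464, 451, 441 and 451 CPM. TGF-β1 replicates 1 to 4 gave 396, 416, 373 and 344 CPM. All treated libraries were lower, and they were also more spread than the untreated ones. Group means were 452 ± 9.61 and 383 ± 30.8 CPM (SD, n = 4 and 4), and the log2 difference was −0.24 ± 0.05 (SE; adjusted p = 0.00022, edgeR).

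Cavin2 encodes a phosphatidylserine-binding cavin that shapes the caveolar membrane (ENSMUSG00000045954, chromosome 1, 51328285 to 51342119, plus strand). It had the largest fold change of the 9 genes. Untreated replicates 1 to 4 gave 275, 279, 278 and 279 CPM, and TGF-β1 replicates 1 to 4 gave 148, 142, 152 and 145 CPM. Both groups were narrow and lay far apart. The log2 difference was −0.92 ± 0.04 (SE; adjusted p = 8.46e-15, edgeR), or 1.89-fold lower, at rank 59 of the genes tested by p-value.

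Cavin3 encodes the cavin that links caveolae to protein kinase C δ (ENSMUSG00000037060, chromosome 7, 105129290 to 105131507, minus strand). Untreated replicates 1 to 4 gave 55.4, 54.1, 54.5 and 57.9 CPM. TGF-β1 replicates 1 to 4 gave 52.8, 56.7, 56.9 and 53.4 CPM. The groups overlapped almost fully. The fold change was 0.99 with a 95% interval of 0.92 to 1.06 (edgeR adjusted p = 0.851). The fold of Cavin1, 0.847, lay outside that interval.

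Whether reads were counted by strand is not stated, so reads of genes on opposite strands could have been counted together. In GENCODE M39, exons of antisense genes covered 16.9% of the exonic bases of Cavin1 and 15.0% of those of Cavin3. For Cav1, Cav2, Cavin2, Pacsin2 and Pacsin3 the share was 2.07% to 5.79%, and for Cav3 and Ehd2 no exon of another gene overlapped.

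Next to Cavin1, Stat3, a transcription factor gene 17192 bases away, had a log2 difference of −0.20 ± 0.03 (SE; adjusted p = 6.8e-05, edgeR), and Atp6v0a1, a proton pump subunit gene on the other side, was not called (0.08 ± 0.04, adjusted p = 0.177, edgeR). Both neighbours of Cavin2 were called lower. Tmeff2, 101855 bases away, was low, with means of 1.93 CPM in untreated and 1.03 CPM in treated libraries (−0.91 ± 0.27, adjusted p = 0.0118, edgeR). Nabp1, 162901 bases away, changed by −0.21 ± 0.07 (adjusted p = 0.0197, edgeR). Both neighbours of Cavin3, which itself was not called, were called higher, Fhip1b by 0.17 ± 0.07 and Smpd1, acid sphingomyelinase, by 0.14 ± 0.05.

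**Figure D2:**
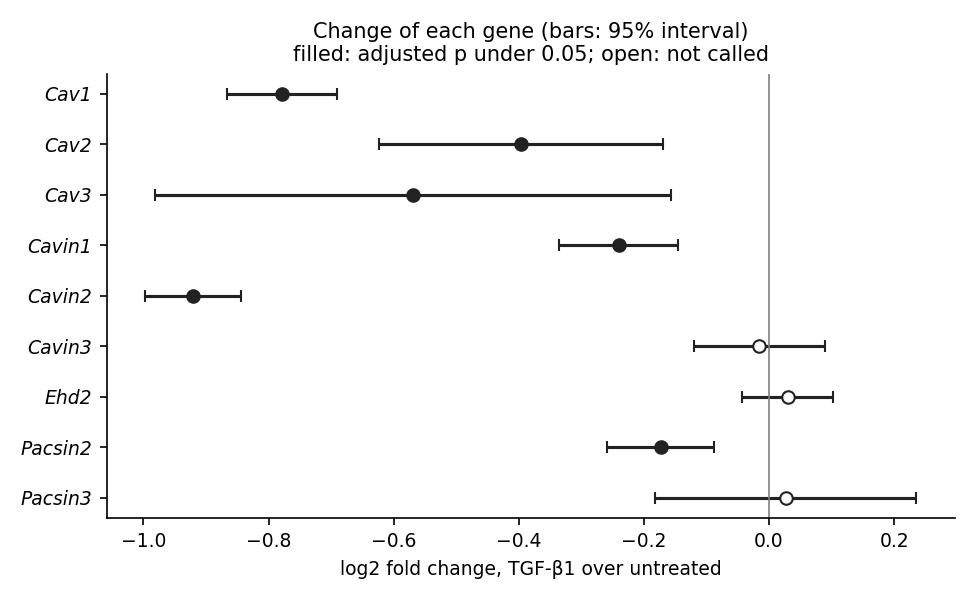
Log2 fold change of TGF-β1 over untreated libraries (horizontal axis) for each of the 9 genes, with 95% intervals from the edgeR fit. Filled points passed an adjusted p of 0.05, and open points, Cavin3, Ehd2 and Pacsin3, have intervals that include 0. Cavin2 and Cav1 lie farthest from 0, at −0.92 and −0.78, and the widest interval belongs to Cav3.

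The 250 bases before the most upstream start sites of Cavin1 and Cavin2 are shown for the coat genes that fell by the least and the most, from the same RefSeq table (GRCm38.p6, Cavin1 at chr11:100970618-100970867 on the minus strand and Cavin2 at chr1:51288876-51289125 on the plus strand), 5′ to 3′, with the same motifs and CATTCC in capitals.
Cavin1: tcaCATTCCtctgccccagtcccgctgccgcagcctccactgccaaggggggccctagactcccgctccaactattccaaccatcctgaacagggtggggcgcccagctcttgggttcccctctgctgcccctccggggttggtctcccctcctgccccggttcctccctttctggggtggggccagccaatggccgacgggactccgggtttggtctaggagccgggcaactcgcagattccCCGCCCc
Cavin2: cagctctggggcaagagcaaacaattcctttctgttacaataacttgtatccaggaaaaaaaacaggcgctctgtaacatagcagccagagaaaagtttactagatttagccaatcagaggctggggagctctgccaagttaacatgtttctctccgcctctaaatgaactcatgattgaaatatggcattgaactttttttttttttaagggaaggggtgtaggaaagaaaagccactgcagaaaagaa
The Cavin1 window was rich in G and C (67.6%), with 1 GC box on the opposite strand and 1 CATTCC. A further Cavin1 window in the table, shifted by 2 bases, held the same number of each. The Cavin2 window had 40.4% G and C and held none of the 5 motifs. That says only that these letters are not in this window. The table had entries for 8 of the 9 genes, and Cavin3 was the one without.

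Ehd2 encodes the ATPase of the caveolar neck (ENSMUSG00000074364, chromosome 7, 15680883 to 15701492, minus strand). It had the most reads of the 9 genes, at 654, 688, 679 and 648 CPM in untreated replicates 1 to 4 and 686, 678, 699 and 662 CPM in TGF-β1 replicates 1 to 4. The groups overlapped. The fold change was 1.02 with a 95% interval of 0.971 to 1.07 (edgeR adjusted p = 0.549). The fold of Cav1, 0.583, lay far below that interval.

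Pacsin2 encodes the widely expressed F-BAR protein of caveolae, also called syndapin-2 (ENSMUSG00000016664, chromosome 15, 83259808 to 83348807, minus strand). Untreated replicates 1 to 4 gave 155, 164, 148 and 154 CPM, and TGF-β1 replicates 1 to 4 gave 142, 141, 135 and 134 CPM. The treated values were all lower, by a small margin at the nearest pair. The log2 difference was −0.17 ± 0.04 (SE; adjusted p = 0.00199, edgeR). Pacsin3, the muscle-enriched relative (ENSMUSG00000027257, chromosome 2, 91086299 to 91095024, plus strand), gave 15.3, 17.4, 13.1 and 15.9 CPM in untreated replicates 1 to 4 and 16.7, 16.8, 16.3 and 13.2 CPM in treated ones. The groups overlapped, and the 95% interval of its fold change ran from 0.881 to 1.18 (edgeR adjusted p = 0.87). Its counts, 194 to 266 per library, leave changes as small as that of Pacsin2 within this interval.

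Levels of different genes were compared as CPM per kb of the gene length in the deposited table. In untreated cells the order was Ehd2 (130 ± 3.74, SD, n = 4), Cavin1 (126 ± 2.68), Cavin2 (90.9 ± 0.556), Cav1 (44.1 ± 1.44), Cavin3 (33.4 ± 1.04), Pacsin2 (31.7 ± 1.37), Cav2 (4.65 ± 0.401), Cav3 (3.86 ± 0.617) and Pacsin3 (3.56 ± 0.412). The ranges of Ehd2 and Cavin1 overlapped, as did those of Cavin3 and Pacsin2 and those of Cav2, Cav3 and Pacsin3 in sequence. After TGF-β1 the upper 3 kept their places, at 133 ± 3.04, 107 ± 8.60 and 48.0 ± 1.41 CPM per kb, and the ranges of Ehd2 and Cavin1 no longer overlapped. Cav1 went from the fourth place to the sixth, at 25.7 ± 1.02 CPM per kb, below Cavin3 (33.1 ± 1.31) and Pacsin2 (28.1 ± 0.765). The 3 lowest were again Cav2, Cav3 and Pacsin3, at 2.61 to 3.64 CPM per kb, again with overlapping neighbours.

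**Figure D3:**
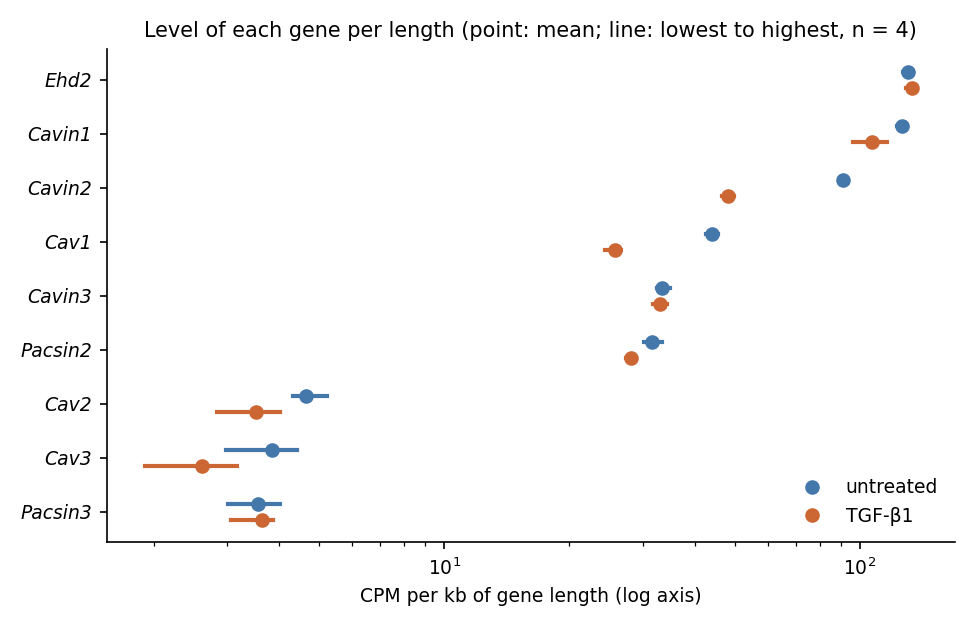
Level of each gene as CPM per kb of gene length (logarithmic horizontal axis) in untreated and TGF-β1 libraries, with the mean as a point and a line from the lowest to the highest of 4 libraries. Cav1 sits above Cavin3 and Pacsin2 in untreated libraries (44.1 CPM per kb) and below both in treated ones (25.7 CPM per kb).

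Ratios between genes within a library do not depend on scaling between libraries, so 6 ratios of counts per kb were tested by exact permutation, two-sided, with 70 ways to assign 8 libraries to the groups. The smallest p this design allows is 0.0286, which becomes 0.0429 after adjustment here. Of the 6 ratios, 4 separated the groups fully. Several ratios share Cav1 or Cavin1 and are not independent. The pairs were also chosen with earlier results of these data known. Their p-values therefore describe the separation and add no independent support to the changes of the single genes. How often other gene pairs separate the groups was not computed.

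Cavin1, the coat gene, and Ehd2, the neck gene, both rose relative to Cav1, the scaffold gene. Cavin1 over Cav1 went from 2.86 ± 0.148 to 4.16 ± 0.468 (SD, n = 4 and 4, exact permutation p = 0.0286, adjusted p = 0.0429), with 2.71 to 3.04 in untreated and 3.61 to 4.58 in treated libraries. Ehd2 over Cav1 went from 2.96 ± 0.131 to 5.19 ± 0.256 (same p and adjusted p, exact permutation test, n = 4 and 4), the largest shift of the 6. The fall of Cav1 was larger than that of Cavin1 in these ratios, as it already was in the edgeR fit (−0.78 and −0.24, log2).

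The cavins also changed in proportion to each other. Cavin2 over Cavin1 went from 0.722 ± 0.019 to 0.453 ± 0.0421 (exact permutation p = 0.0286, adjusted p = 0.0429, n = 4 and 4), and Cavin3 over Cavin1 from 0.265 ± 0.009 to 0.311 ± 0.024 (same p and adjusted p). As a share of the summed cavins per kb, Cavin2 went from 36.3% ± 0.549 to 25.6% ± 1.49 (SD, n = 4 and 4). Cavin1 went from 50.3% ± 0.63 to 56.7% ± 2.07 and Cavin3 from 13.3% ± 0.346 to 17.6% ± 0.776. Cav1 made up 83.8% ± 1.28 of the summed caveolins in untreated and 80.8% ± 1.41 in treated libraries.

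The other 2 ratios overlapped between groups. Cav2 over Cav1 was 0.105 ± 0.00676 in untreated and 0.137 ± 0.0184 in treated libraries (exact permutation p = 0.0571, adjusted p = 0.0686, n = 4 and 4). The falls of Cav2 and Cav1 were therefore not separated by this test. Pacsin3 over Pacsin2 was 0.112 ± 0.00872 and 0.129 ± 0.0118 (exact permutation p = 0.114, adjusted p = 0.114, n = 4 and 4).

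**Figure D4:**
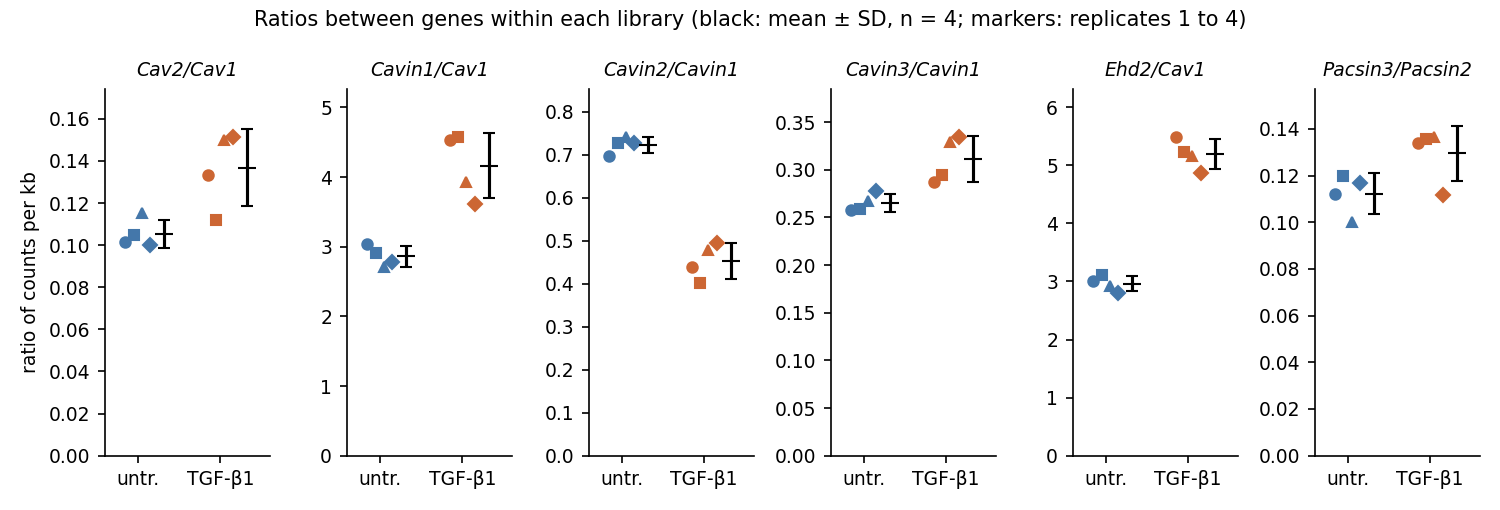
Ratio of counts per kb of gene length between gene pairs within each library (vertical axes, each from 0), with one marker per replicate number and mean ± SD in black for 4 untreated and 4 TGF-β1 libraries. The ratios Cavin1/Cav1, Cavin2/Cavin1, Cavin3/Cavin1 and Ehd2/Cav1 do not overlap between groups, and Cav2/Cav1 and Pacsin3/Pacsin2 do.

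Relatives of the members that were not members themselves were mixed. Of 4 tested genes in the list of other EHD, cavin and pacsin genes, 1 rose and 2 fell (median −0.23). Ehd3, an endosomal EHD protein, fell by 0.93 ± 0.04 (log2, SE, edgeR adjusted p = 4.81e-14), from 122 ± 2.83 to 64.0 ± 1.71 CPM (SD, n = 4 and 4). Ehd4 fell by 0.37 ± 0.04, and Ehd1, which drives endocytic recycling, rose by 0.17 ± 0.04. Pacsin1, the neuronal pacsin, did not pass the count filter.

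Among 10 genes whose products bind or regulate caveolae, 3 rose and 2 fell (median −0.01). Flna, filamin A, which tethers caveolae to actin, rose from 2382 ± 57.1 to 2740.1 ± 94.6 CPM (SD, n = 4 and 4, log2 fold change 0.20 ± 0.03). Fyn, a SRC-family kinase, rose by 0.26 ± 0.05, and the ubiquitin ligase gene Nedd4l fell by 0.69 ± 0.07. Dnm2, the dynamin of the neck, was not called (−0.01 ± 0.04, edgeR adjusted p = 0.929). Of 13 tested receptors, channels and transducers reported in caveolae, 5 rose and 4 fell (median −0.06). Bmpr2, the type II BMP receptor, rose by 0.43 ± 0.05 and Gnaq, the Gq α subunit, by 0.37 ± 0.04, and Pdgfra, the PDGF receptor α, fell by 1.18 ± 0.05. The TGF-β receptor genes gave −0.13 ± 0.05 for Tgfbr1 (edgeR adjusted p = 0.0437) and −0.06 ± 0.04 for Tgfbr2 (edgeR adjusted p = 0.28).

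Of 18 clathrin endocytosis genes, 7 rose and 3 fell (median 0.06). The AP-2 subunit gene Ap2a2 rose by 0.37 ± 0.04 and the clathrin assembly gene Picalm by 0.24 ± 0.04, whereas Dab2, an endocytic adaptor, fell by 0.70 ± 0.05. Of 6 flotillins and related raft proteins, none rose and 2 fell (median −0.02), namely Stom by 0.58 ± 0.05 and Flot2 by 0.35 ± 0.04, while Flot1 was at 0.01 ± 0.06 (edgeR adjusted p = 0.899). Of 14 genes of cholesterol supply, on which caveolae depend, 3 rose and 8 fell (median −0.14). The cholesterol exporter gene Abca1 fell by 0.55 ± 0.05 and the lipoprotein receptor gene Scarb1 by 0.40 ± 0.05.

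**Figure D5:**
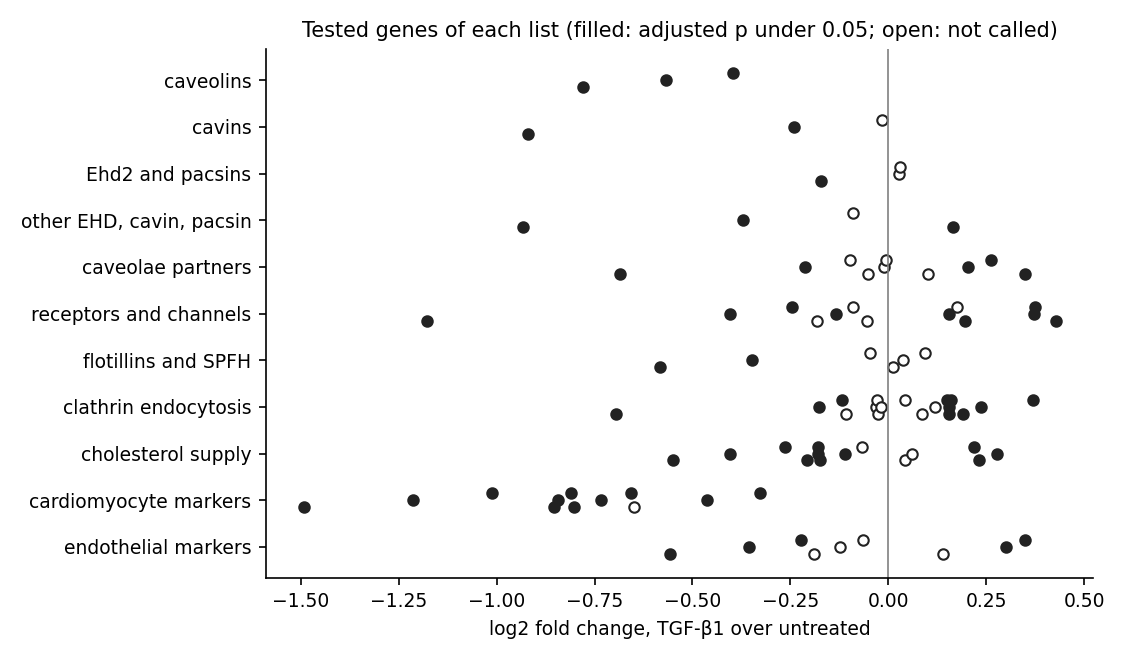
Log2 fold change of TGF-β1 over untreated libraries (horizontal axis) for each tested gene of the caveolae genes, 6 related lists and 2 marker lists (rows), filled where adjusted p was under 0.05 and open otherwise. All 3 caveolins lie left of 0, the clathrin list spreads to both sides with 7 genes called higher and 3 lower, and 11 of 12 cardiomyocyte markers were called lower.

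Markers of other cell types, some of them known for abundant caveolae, were measured in the same libraries, and apart from the adipocyte list no marker was at 0 in all of them. Of 9 tested endothelial markers 2 rose and 3 fell (median −0.12), with a summed level of 88.3 to 90.6 CPM in untreated and 81.7 to 89.6 CPM in treated libraries. Tek, the most abundant of them, was at 31.3 ± 1.64 and 26.8 ± 2.52 CPM (SD, n = 4 and 4). Mural markers summed to 298 to 309 CPM in untreated and 452 to 509 CPM in treated libraries, with 3 of 6 tested rising and 2 falling. Mcam, the most abundant, was at 209 ± 1.62 and 375 ± 20.9 CPM. Epicardial and mesothelial markers summed to 1204 to 1260.4 CPM and 968 to 998 CPM, with 3 of 8 falling. Upk1b, the most abundant over all libraries, was not called (−0.04 ± 0.04, edgeR adjusted p = 0.429). Macrophage markers summed to 179 to 218 CPM and 162 to 195 CPM, with 1 of 6 rising and 1 falling, and Lyz2 was the highest of them (−0.18 ± 0.05). Of 8 fibroblast markers, 1 rose and 6 fell (median −0.54). The 6 genes of cell division all fell, with Mki67 at 64.6 ± 2.16 and 7.86 ± 2.08 CPM (SD, n = 4 and 4). The part of these cell types and of cell division in the falls of the caveolin and cavin genes was not tested.

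The genes whose profiles over the 8 libraries were closest to a member were named by the root mean square difference of log2 CPM, each profile centred on its mean, among 7345 tested genes with a mean of at least 20 CPM. For Cav1 these were Tmem176b (0.0481), Tmem176a (0.0532) and Stk26 (0.0535). For Cavin1 they included Ddr1 (0.0324) and Ptms (0.0325). All profiles share the same libraries and are set mainly by the difference between the groups, so that the genes are close in the size of their fall: Tmem176b changed by −0.73 ± 0.04 and Ptms by −0.27 ± 0.04 (log2, SE).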

How the data were processed

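RNA-seq of 8 cultures (4 untreated, 4 with TGF-β1) was analysed from 2 deposited tables of 56748 genes. Read counts per gene were deposited as whole numbers without normalization. Per the submitters' processing notes the tools were CASAVA, HISAT2, featureCounts and Subread, without versions. FPKM values by the authors are in the other deposited table and were used for alternatives only. The notes name GRCm38 and the series design mm39. The coordinates of all 9 genes overlap the same genes in GENCODE M39 (GRCm39), so they are read as GRCm39. Groups and replicate numbers came from sample titles. For replicate pairs within a group (12), the median chi-square per gene was 2.08 to 3.16 times that of sampling noise, a ratio of variances. The mean chi-square was 27.9 to 31.6 for pairs with untreated replicate 1 and 2.95 to 10.8 for the other pairs. None was merged.

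Genes were filtered with filterByExpr (minimum count 10, total 15), scaled with TMM factors and tested over the whole table by quasi-likelihood in edgeR (version 4.0.16 in R 4.3.3; group as the only term, two-sided, Benjamini-Hochberg over 13960 genes, threshold 0.05), after a check on simulated data. The biological coefficient of variation was 6.27%. CPM uses TMM-scaled totals; SE is the log2 fold change over the square root of F. The sources used here do not give the strand setting. The members, gene lists, ratios and motifs were chosen with earlier results of these data known. Named beside the members were up to 3 called genes with the smallest p per related list, the most abundant marker per cell type, 3 profile neighbours of Cav1 and Cavin1 and genomic neighbours, of which some genes are not reported here; further list members chosen after their values were seen are Cavin4, Pacsin1, Dnm2, Tgfbr1, Tgfbr2, Flot1 and Vim. Alternatives were scaling by totals alone, by RLE or by the upper quartile, other filters, DESeq2 1.42.0, limma 3.58.1 on log2(FPKM + 1) and log2(FPKM + 0.1), a replicate block, removal of ribosomal RNA genes with Lars2, and leaving out each library.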

Additional observations from a re-analysis of the deposited data

Results flagged for a closer look

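In groups of 4 libraries, a value was singled out where its gap to the nearest other value as a share of the group's range exceeded Dixon's 95% critical value. Over 130 groups of named genes and ratios 4 were singled out, and chance gives about 1 in 20. Cavin2 in untreated replicate 1 was lowest, at 275 CPM against 278 to 279 CPM in the others (0.861 of the range). Pacsin3 in TGF-β1 replicate 4 was lowest, at 13.2 CPM against 16.3 to 16.8 CPM (0.847). Its log2 ratio to Pacsin2 was accordingly lowest in the same library, at −3.16 against −2.90 to −2.87 (0.899). Ttll1, the gene to the right of Pacsin2, was highest in untreated replicate 1, at 23.6 CPM against 22.3 CPM in each of the others (0.984).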

How the results depend on the processing

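Cav1, Cav2, Cavin1, Cavin2 and Pacsin2 kept their direction and call in all 18 alternatives each, with log2 fold changes of −0.86 to −0.75, −0.48 to −0.30, −0.32 to −0.19, −1.0 to −0.90 and −0.25 to −0.14. The number of members called was 6 under every alternative apart from DESeq2 and 5 of the 8 leave-one-out fits, where it was 5 because Cav3 was lost. Cav3 stayed negative throughout (−0.68 to −0.43, adjusted p 0.0134 to 0.106). The sign of genes that were not called was not stable. With library totals Ehd2 was at −0.051 and Pacsin3 at −0.054. Leaving out 1 library each, Cavin3 ran from −0.031 to 0.0071 and Pacsin3 from −0.046 to 0.11. None of these passed the threshold. Library totals also changed the genes called higher over the whole table to 1301 from 2451. TMM factors were 1.02 to 1.05 in untreated and 0.958 to 0.979 in TGF-β1 libraries. Leaving them out moved the median log2 fold change of all genes tested from 0.01 to −0.07. Why the factors differ between the groups was not tested. With deposited FPKM the same number of ratios, 4, passed, but this is no check. The library total cancels within a ratio, so FPKM must give the same values as counts per kb. The mean over replicate-number pairs likewise equals the main difference by construction. All 6 ratios kept their direction in the 10 alternatives each, of which only the 8 that leave out 1 library could differ from the main value. No p was computed for ratios without 1 library.

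With the replicate number as a block, 6 members were called (Cav1 −0.78, Cavin2 −0.92) and 4971 genes in all, against 5030. Same-numbered libraries did not deviate together (correlations of −0.10 to 0.07 over 9184 genes). Deviations also carry differences between libraries, such as in ribosomal RNA, so this check cannot tell whether same-numbered cultures share a litter. A sign-flip test of the 4 number pairs cannot reach the threshold. Depth limits Cav3 most, at 36 to 77 reads per library.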
